A study of Mus musculus with 2 samples.

Results

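The 58 genes described here encode the ligands, receptors, transducers and targets of 4 signalling pathways that pattern the brain: Wnt (27 genes), Notch (13), Hedgehog (7) and BMP (11). They were taken by symbol from a list of pathway genes, and each was found among the 43346 mouse gene identifiers of the gene tables. The libraries came from the midbrains of newborn B6NCrl mice, a laboratory strain of the C57BL/6N line, at postnatal day 0. Pup 1 (replicate 1) and pup 3 (replicate 2) each gave 1 midbrain and 1 library, and both fall in a single group with no treatment, so no condition was compared. The labels record no sex, and they give the same donor record for both pups. Although the assay carries a single-cell name, its input was 13 pg of RNA extracted from tissue with a mirVana kit, the quantity of 1 cell-equivalent. RNA longer than 200 nucleotides was amplified by a Smart-seq protocol with synthetic spike-in RNAs added. In such bulk RNA, fewer cells of a type and less RNA per cell cannot be told apart.

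Wnt ligands bind Frizzled receptors and Lrp co-receptors, and through Dishevelled they free β-catenin from a degradation complex of Axin, Apc and Gsk3, so that it can work with TCF/LEF factors at target genes. Notch receptors are cut after binding a Delta or Jagged ligand on a neighbouring cell, and the freed part joins Rbpj to switch on Hes and Hey repressors, while Hedgehog relieves Patched's block of Smoothened and so changes the balance of Gli factors. BMP ligands bind paired receptor kinases that phosphorylate Smad proteins, whose targets include the Id genes. In the embryonic midbrain, Wnt1 and Shh pattern the tissue and its dopamine neurons, and Notch and Id genes act in neural progenitors.

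Mouse genes held 26037002 expected counts in pup 1 and 32408655 in pup 3, and a gene with 0 counts could still hold up to 3 (0.115 and 0.0926 CPM). Levels are given as TPM, a unit of reads per transcript length scaled to a common total per table, with the mean ± SD over n = 2 pups for genes of both libraries, and detection means a TPM of at least 1. Folds between pups are count ratios after dividing by the library totals above, with the exact (Clopper-Pearson) 95% interval. A gene was listed as over 4-fold apart only when that whole interval lay beyond 4-fold, and a fold against 0 counts is a lower bound against 3 counts in that library. Intervals and bounds reflect counting error alone: copies of the same starting molecule are not independent reads. With 1 library per pup, the folds compare libraries and have no replicate check. As a check of the tissue, all 10 neuron markers were detected in both libraries, 9 of 10 midbrain markers were detected in at least 1 (4 in both, led by Meis2, Gata3 and Pou4f1, 3 in pup 1 alone, namely Otx2, Pax3 and Lmx1b, and 2 in pup 3 alone, En2 and Pax7), and all 7 hindbrain Hox genes had 0 counts in both. En1, a midbrain patterning factor, was listed at 0.05 and 0.97 TPM. Six3 and Dlx1 were the 2 of 8 forebrain markers detected, and they were detected in both libraries. Oligodendrocyte-lineage markers summed to 186 and 156 TPM (5 of 10 detected in both, 3 in pup 1 alone and 1 in pup 3 alone). Microglia markers summed to 129 and 107 TPM (4 of 8 detected in both and 1 in each pup alone). Single markers of both lists went both ways, so near-equal sums do not mean equal markers.

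Of the 58 genes, 22 were detected in both libraries and 13 in neither, while 9 were found in pup 1 alone and 14 in pup 3 alone. The share in both was 37.9% (31.8% of all 21474 protein-coding genes) and the share in neither 22.4% (49.8%). Pup 1 alone held 15.5% (11.0%) and pup 3 alone 24.1% (7.33%). Of the 45 genes detected in either library, 48.9% were detected in both, against 63.5% of the 10772 protein-coding genes detected in either. The pathways split in different ways. All 11 BMP genes were detected in pup 3 but 6 of them in pup 1, while the 27 Wnt genes gave 10 in both, 6 in each pup alone and 5 in neither. Of the 13 Notch genes, 4 were in both, 3 in pup 1 alone, 2 in pup 3 alone and 4 in neither. Of the 7 Hedgehog genes, 2 were in both, 1 in pup 3 alone and 4 in neither. By role, none of the 11 ligands was detected in both libraries. Of the 10 genes grouped as targets, Hes6 among them, 7 were, as were 6 of the 11 intracellular transducers. The 9 genes with 0 counts in both libraries were Wnt7a, Wnt7b, Fzd8, Lrp5, Hes1, Hey1, Shh, Gli1 and Gli2.

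**Figure D1:**
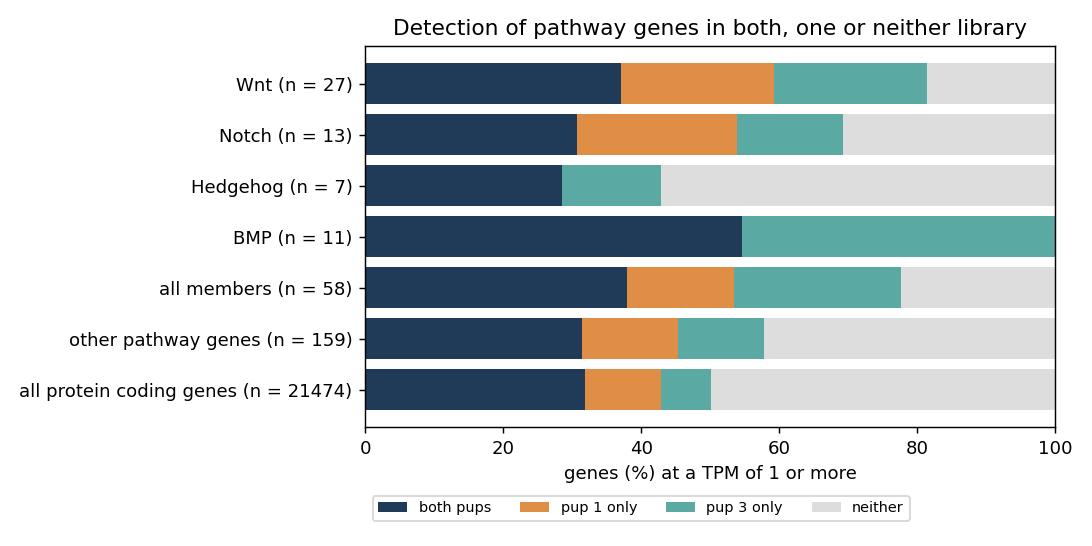
Bars give the percent of genes at a TPM of 1 or more in both libraries, in 1 pup alone or in neither, for the genes of each pathway, all 58 genes, 159 other genes of these pathways and all 21474 protein-coding genes. The BMP bar has no share in neither library and none in pup 1 only, and Hedgehog has the widest share in neither (4 of 7 genes).

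Differences over 4-fold were found for 14 of the 58 genes in favour of pup 1 (24.1%) and 15 in favour of pup 3 (25.9%), where all 43346 mouse genes gave 7.78% and 6.02%. Most mouse genes had no counts in either library, so the genes detected in either give a closer background. Among these, 24.4% and 33.3% of 45 pathway genes stood beside 25.9% and 20.5% of 12144 genes. The genes listed higher in pup 1 were Wnt1, Wnt3, Sfrp1, Sfrp2, Dkk3, Dvl1, Dvl2, Tcf7l1, Notch2, Notch3, Dll1, Dll3, Hes5 and Gli3. Those listed higher in pup 3 were Wnt5a, Fzd2, Fzd5, Lrp6, Dvl3, Axin1, Notch1, Jag1, Numbl, Smo, Bmp4, Bmp7, Bmpr1a, Smad4 and Smad5. By pathway the 2 directions held 8 and 6 Wnt genes, 5 and 3 Notch genes, 1 and 1 Hedgehog genes, and 0 and 5 BMP genes.

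**Figure D2:**
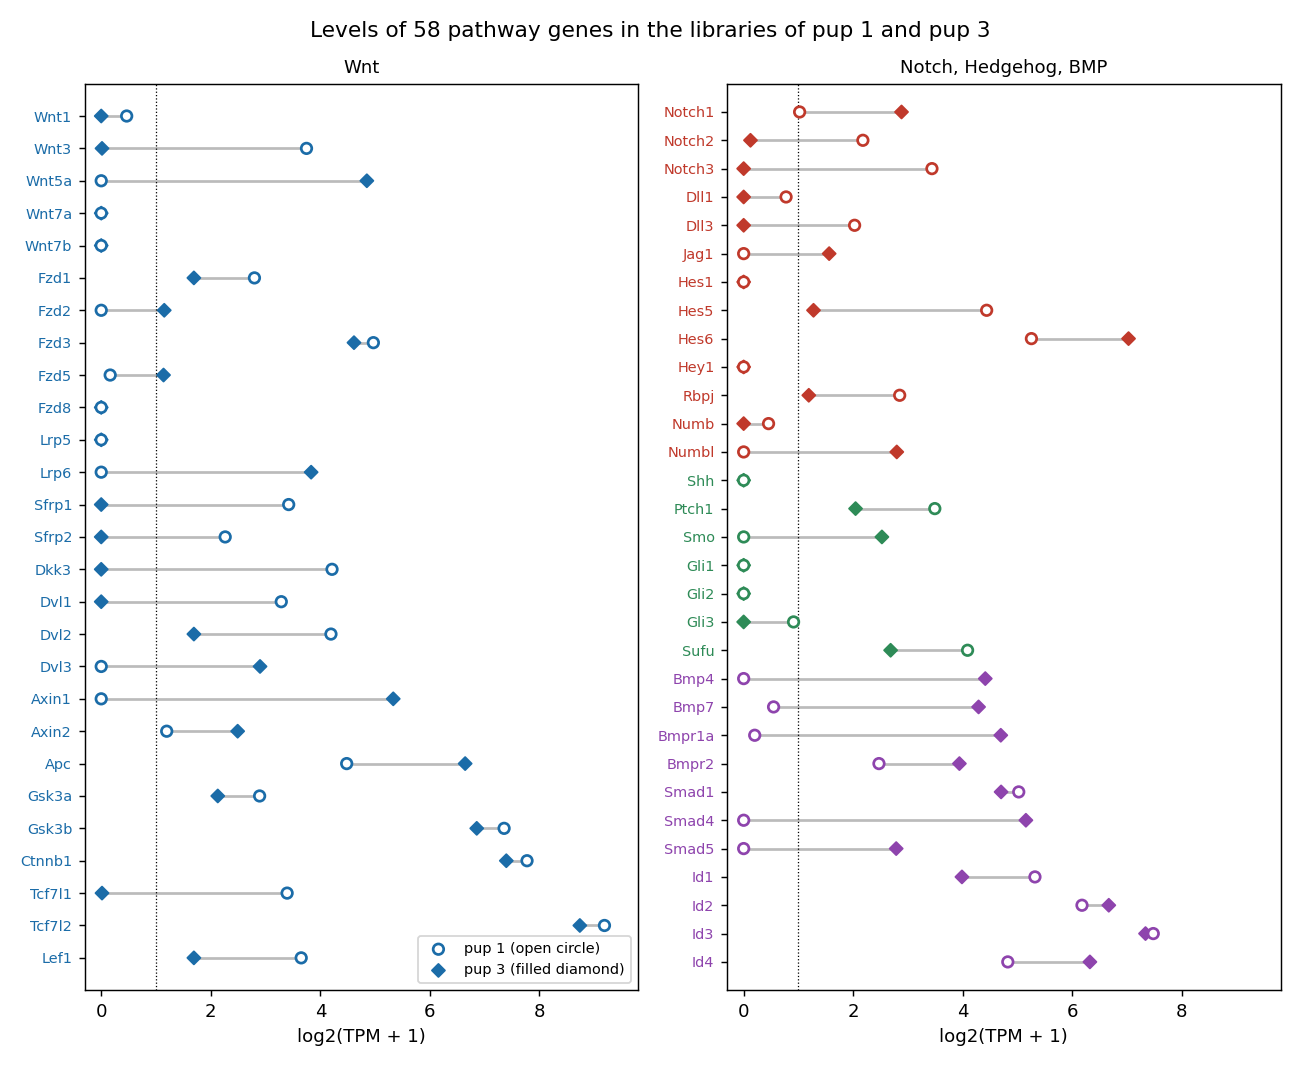
Each line joins the level of 1 gene in pup 1 (open circle) and pup 3 (filled diamond) on a log2(TPM + 1) axis, with the Wnt genes on the left and the Notch, Hedgehog and BMP genes on the right; the dotted line marks a TPM of 1. Short lines at high levels belong to Tcf7l2, Ctnnb1, Gsk3b and Id3, while Axin1, Smad4, Wnt5a and Bmp4 run from 0 in pup 1 to 20.27 TPM or more in pup 3.

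Each Wnt ligand that was detected was detected in a single library. Wnt3, a secreted ligand of the β-catenin branch, stood at 12.43 TPM in pup 1 (603 counts) and 0.01 TPM in pup 3 (1 count), a ratio of 751 with a counting interval of 134 to 29694. Wnt5a, a ligand that acts largely outside β-catenin and in midbrain dopamine neuron development, went the other way, with 0 counts in pup 1 and 27.82 TPM in pup 3 (1566 counts). It was at least 419-fold higher in pup 3. Wnt1, the ligand of the midbrain-hindbrain boundary and roof plate, had 14 counts in pup 1 (0.38 TPM) and 0 in pup 3, which made it at least 5.81-fold higher in pup 1 although it was below a TPM of 1 in both. Wnt7a and Wnt7b, ligands that guide brain vessel growth, had 0 counts in both.

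The 3 secreted Wnt modulators among the 58 genes were detected in pup 1 and had 0 counts in pup 3. Sfrp1, a soluble Frizzled-like binder of Wnts, stood at 9.72 TPM (677 counts), at least 281-fold higher in pup 1. Its relative Sfrp2 stood at 3.80 TPM (118 counts), at least 49.0-fold higher. Dkk3, a secreted member of the Dickkopf family, stood at 17.55 TPM (932 counts), at least 387-fold higher and the highest of the 9 genes detected in pup 1 only. Sfrp2 shares 16.1% of its exon bases with Gm26771 on the opposite strand, which had 0 and 1 counts. Of 10 other Wnt antagonists, 3 were detected in pup 1 alone (Apcdd1, Frzb and Nkd1), 2 in pup 3 alone (Nkd2 and Wif1) and 5 in neither. Wif1, a secreted Wnt binder, stood at 0.32 and 10.02 TPM, and was named after its values were seen.

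Among Wnt receptors, Fzd3, a Frizzled known for axon guidance, had the highest level in both libraries at 30.30 and 23.49 TPM (26.9 ± 4.82, n = 2). Fzd1 followed at 5.95 and 2.23 TPM, a 2.38-fold higher count in pup 1 (interval 2.01 to 2.83). Both receptors were therefore present in both pups. Fzd2 had 0 counts in pup 1 and 1.22 TPM in pup 3 (99 counts, at least 26.5-fold higher), and Fzd5 stood at 0.12 and 1.20 TPM (13 and 186 counts, 11.5-fold higher in pup 3, interval 6.56 to 22.0). These lie just over the level taken as detection. The co-receptor Lrp6, which is phosphorylated on Wnt binding, had 0 counts in pup 1 and 13.24 TPM in pup 3 (2795 counts), at least 748-fold higher. Its paralogue Lrp5 and the receptor Fzd8 had 0 counts in both libraries, so that neither Lrp co-receptor was detected in pup 1.

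The Wnt transducers included some of the highest levels of the 58 genes and also some of the widest gaps between pups. Ctnnb1, which encodes β-catenin, stood at 217.73 and 167.32 TPM (193 ± 35.6, n = 2), and Gsk3b, the kinase that marks β-catenin for degradation, at 162.66 and 114.77 TPM (139 ± 33.9, n = 2). The related kinase Gsk3a stood far lower at 6.42 and 3.37 TPM. Apc, a scaffold of the degradation complex, stood at 21.33 and 98.99 TPM (60.2 ± 54.9, n = 2), and its counts were 3.12-fold higher in pup 3 (interval 3.01 to 3.24). Its partner scaffold Axin1 had 0 counts in pup 1 and 39.25 TPM in pup 3 (2501 counts). At least 670-fold higher in pup 3, Axin1 had the highest level of the 14 genes detected in pup 3 only.

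The 3 Dishevelled genes, which relay the signal from Frizzled, differed in which pup held them. Dvl1 stood at 8.76 TPM in pup 1 (438 counts) and had 0 counts in pup 3, at least 182-fold higher in pup 1. Dvl2 stood at 17.30 and 2.23 TPM, 14.8-fold higher in pup 1 (interval 11.0 to 20.2). Dvl3 had 0 counts in pup 1 and 6.46 TPM in pup 3 (353 counts), at least 94.5-fold higher in pup 3. Each library thus held Dvl2 and 1 of the other 2. Dvl2 shares 19.7% of its exon bases with Acadvl on the opposite strand (37.18 and 36.02 TPM); whether counting used strand is not given in the sources used here, and without strand reads from overlapping genes cannot be told apart. Of the 58 genes, 33 share no exon base with another gene and 9 share at least 10%, and the partners of the other 8 that had a value held 0 to 7 counts in either library.

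Tcf7l2, a TCF factor that carries β-catenin to DNA and a marker of thalamic and midbrain neurons, had the highest level of all 58 genes at 581.75 TPM in pup 1 and 425.78 TPM in pup 3 (504 ± 110, n = 2). Only 2.36% of the detected genes had a higher mean level. The gene (ENSMUSG00000024985.14) lies on GRCm38 chromosome 19 from 55741820 to 55933654 on the plus strand. Lef1, another factor of this family, stood at 11.56 and 2.23 TPM, 3.77-fold higher in pup 1 (interval 3.15 to 4.54). Tcf7l1, known mainly as a repressor, stood at 9.51 TPM in pup 1 (456 counts) and 0.01 TPM in pup 3 (1 count), a ratio of 568 with an interval of 101 to 22467. Axin2, both a feedback inhibitor and a common readout of β-catenin signalling, stood at 1.29 and 4.62 TPM. Its count was 4.45-fold higher in pup 3, but the interval of 3.12 to 6.50 crossed 4-fold.

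Each of the 3 Notch receptors was over 4-fold apart between the pups. Notch1 stood at 1.03 and 6.37 TPM (130 and 1363 counts), 8.42-fold higher in pup 3 (interval 7.03 to 10.2), and was the only one of the 3 detected in both libraries. Notch2 stood at 3.52 and 0.09 TPM (597 and 21 counts), 35.4-fold higher in pup 1 (interval 22.9 to 57.6). Notch3, a receptor known from vascular mural cells, stood at 9.83 TPM in pup 1 and had 0 counts in pup 3, at least 528-fold higher in pup 1. The 8 mural cell markers summed to 120 TPM in pup 1 and 148 in pup 3, with 4 detected in both and Tagln and Anpep at 0 in both. They went both ways, with Rgs5 at 24.24 and 63.19 TPM, Vtn at 80 and 64.43 TPM and Kcnj8 at 8.02 and 0 TPM, and their part in the Notch3 difference was not tested. For Notch1 in pup 1 the deposited TPM of 1.03 lay under its own deposited interval of 1.96 to 7.04.

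The 3 Notch ligands among the 58 genes were low. Dll1, a Delta ligand of neural progenitors, had 32 counts in pup 1 (0.71 TPM) and 0 in pup 3, and Dll3, a Delta relative that inhibits Notch within the same cell, had 42 counts (3.07 TPM) and 0. These were at least 13.3-fold and 17.4-fold higher in pup 1. Jag1, the Jagged ligand, had 0 counts in pup 1 and 1.95 TPM in pup 3 (245 counts), at least 65.6-fold higher. Of the 2 Numb genes, which antagonise Notch after cell division, Numb had 2 and 0 counts, too few for a fold, and Numbl had 0 counts in pup 1 and 5.94 TPM in pup 3 (at least 96.9-fold higher). Rbpj, the DNA-binding partner of cleaved Notch, stood at 6.20 and 1.28 TPM, a 4.32-fold higher count in pup 1 whose interval of 3.61 to 5.20 crossed 4-fold.

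Of the 4 Hes and Hey genes among the 58, grouped here as Notch targets, 2 were detected in both libraries and 2 in neither. Hes6, which acts against Hes1 and accompanies neuronal differentiation, was the highest of the 13 Notch genes at 37.13 and 129.33 TPM (83.2 ± 65.2, n = 2), with a count 3.95-fold higher in pup 3 (interval 3.65 to 4.28). Hes5, a direct Notch target of neural progenitors, stood at 20.64 and 1.42 TPM (395 and 26 counts), 18.9-fold higher in pup 1 (interval 12.7 to 29.3). Hes1 and Hey1 had 0 counts in both libraries. The 2 detected genes of this group therefore differed in opposite directions between the pups. Hes6 is in the group by family and is not read here as a measure of Notch activity. Outside the 58 genes, Hey2 stood at 20.03 and 0 TPM and Heyl at 0 and 15.08 TPM, both named after their values were seen. The summed level of 12 radial glia and astrocyte markers was 2563 TPM in pup 1 and 2981 in pup 3 (9 detected in both, Gfap and Hopx at 0 in both). Fabp7 made up most of that sum (1385 and 2053 TPM). Of the 10 markers detected in either library, 5 were higher in pup 3 by TPM and 5 lower. Slc1a3 (213 and 101 TPM) and Aqp4 (38.55 and 14.56 TPM) were lower, while Sox2 (5.15 and 23.12 TPM) and Nes (0 and 6.48 TPM) were higher. Their part in the Hes5 difference was not tested. Hes5 shares 31.8% of its exon bases with Gm20421 on the opposite strand, which had 0 and 7 counts.

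The 250 bases before the Hes5 start (GRCm38.p6, chr4:154960673-154960922, plus strand, RefSeq promoter table) are shown because Hes5 is the classical Rbpj target among the genes detected. Capitals mark TGGGAA or its reverse complement TTCCCA, the core letters that Rbpj binds, searched on both strands.
Hes5: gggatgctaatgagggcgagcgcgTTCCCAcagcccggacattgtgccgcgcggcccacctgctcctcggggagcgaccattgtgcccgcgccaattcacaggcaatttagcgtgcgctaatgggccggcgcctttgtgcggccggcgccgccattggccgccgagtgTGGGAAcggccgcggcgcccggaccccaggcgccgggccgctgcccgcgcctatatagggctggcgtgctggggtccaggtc
The matches began at bases -226 and -82, counted back from the start. At least 1 match was held by 21.6% of 32851 promoter windows of this length and at least 2 by 2.77%. A match describes letters and is not evidence of binding. Of the 58 genes, 40 had an entry in this table. The Axin2 window held 0 matches to CTTTGAT (or ATCAAAG), the TCF/LEF letters found in 3.21% of windows. The Ptch1 window held 0 matches to the GLI letters TGGGTGGTC (or GACCACCCA), found in 0.225%. That Ptch1 window (chr13:63565736-63565985, minus strand) lies inside the GENCODE M21 gene, whose outermost start is at 63573598.

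Among the Hedgehog genes, the ligand and the Gli genes were not detected in either library. Ptch1, Sufu and Smo were detected in pup 3, and all but Smo in pup 1. Shh, the ligand of the floor plate, had 0 counts in both libraries, as did Gli1, the common target of the pathway, and Gli2, its main activator. Gli3, which works chiefly as a repressor, had 116 counts in pup 1 (0.88 TPM) and 0 in pup 3, at least 48.1-fold higher in pup 1 but under the detection level. Ptch1, the Hedgehog receptor and itself a target, stood at 10.23 and 3.12 TPM, 2.92-fold higher in pup 1 (interval 2.63 to 3.26). Sufu, which holds Gli proteins in the cytoplasm, stood at 16 and 5.42 TPM, 2.54-fold higher in pup 1 (interval 2.29 to 2.82). Both were detected in both pups. Smo, the transducer that Patched restrains, had 0 counts in pup 1 and 4.75 TPM in pup 3 (398 counts), at least 107-fold higher in pup 3.

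Both BMP ligands and both BMP receptors among the 58 genes had higher counts in pup 3. Bmp4 had 0 counts in pup 1 and 20.27 TPM in pup 3 (901 counts), at least 241-fold higher, and Bmp7 stood at 0.46 and 18.54 TPM (27 and 1430 counts), 42.6-fold higher (interval 29.1 to 64.8). Bmpr1a, a type I receptor, stood at 0.15 and 24.88 TPM (14 and 3319 counts), 190.5-fold higher in pup 3 (interval 113 to 349). The type II receptor Bmpr2 stood at 4.54 and 14.33 TPM, 3.54-fold higher in pup 3 (interval 3.30 to 3.80), so that the difference was in 1 direction for these 4 genes. Another ligand, Bmp5, went the other way, at 18.82 TPM in pup 1 and 0 in pup 3. Bmp4 and Bmp7 are also made by meninges and choroid plexus. The summed level of 8 meningeal markers was 2986 TPM in pup 1 and 4036 in pup 3. Of these, 7 were detected in both libraries and Foxc1 was at 0 in both. Ptgds made up most of that sum (2555 and 3513 TPM). By TPM, 5 of the 7 were higher in pup 3, while Col1a1 (26.21 and 3.49 TPM) and Slc6a13 (77.94 and 55.77 TPM) were lower. Igf2, higher in pup 3 by TPM, was lower there by count ratio (0.802, interval 0.770 to 0.835). The part of these markers in the BMP values was not tested. Of 9 ependymal and choroid markers, Rsph1 (0 and 32.94 TPM) was the only one detected, and Kl, Folr1, Clic6 and Kcnj13 were at 0 in both.

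The Smad proteins that relay the signal were unevenly held. Smad1, a receptor-regulated Smad, stood at 31.48 and 24.98 TPM (28.2 ± 4.60, n = 2). Smad5, its close relative, had 0 counts in pup 1 and 5.89 TPM in pup 3 (588 counts, at least 157-fold higher). Smad4, the partner that all receptor-regulated Smads share, had 0 counts in pup 1 and 34.56 TPM in pup 3 (1366 counts, at least 366-fold higher). In pup 1, Smad1 was thus the only detected member of these 3.

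The 4 Id genes, inhibitors of bHLH factors and common BMP targets, were all detected in both libraries, and 3 of them were among the 8 highest of the 58 genes by mean level. Id3 stood at 177.16 and 160.53 TPM (169 ± 11.8, n = 2), with counts that differed by a ratio of 1.02 (interval 0.974 to 1.07). The TPM and the count ratio of Id3 point in opposite directions, and under TMM or DESeq2 scaling the count ratio was 0.893 or 0.887. Id2 stood at 71.31 and 100.51 TPM (85.9 ± 20.6, n = 2), and Id4, which is known from neural progenitors, at 27.28 and 78.92 TPM (53.1 ± 36.5, n = 2), 3.25-fold higher in pup 3 (interval 2.99 to 3.53). Id1, known also from endothelium, went the other way at 38.87 and 14.83 TPM, 2.33-fold higher in pup 1 (interval 2.02 to 2.71). Endothelial markers summed to 223 TPM in pup 1 and 253 in pup 3 (3 of 10 in both, Tek and Slco1a4 at 0 in both). They went both ways, with Cldn5 at 147.35 and 114.85 TPM, Esam at 49.84 and 0 TPM, Slc2a1 at 22.07 and 64.96 TPM and Ly6c1 at 0 and 45.33 TPM, and their part in the Id1 difference was not tested. None of the 4 Id genes was listed as over 4-fold apart.

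The window before the Id4 start (GRCm38.p6, chr13:48260866-48261115, plus strand, RefSeq promoter table) is shown for the BMP branch. It precedes the RefSeq start, from which its positions are counted and which lies upstream of the GENCODE M21 start at 48261228. Capitals mark GGCGCC, a GC-rich letter string bound by BMP Smads that is its own reverse complement, found in 9.59% of the 32851 windows.
Id4: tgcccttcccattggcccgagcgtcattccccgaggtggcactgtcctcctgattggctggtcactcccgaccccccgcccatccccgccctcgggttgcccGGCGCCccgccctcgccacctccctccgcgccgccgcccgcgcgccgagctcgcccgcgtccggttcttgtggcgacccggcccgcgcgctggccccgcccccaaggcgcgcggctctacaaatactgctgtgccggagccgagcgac
Its match began at base -148. The same letters occurred 4 times in the Hes5 window.

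Across the 22 genes detected in both libraries, mean levels ran from 2.96 TPM (Axin2) to 504 TPM (Tcf7l2), with a median of 18.9 TPM. The 6836 protein-coding genes of both libraries had a median of 42.8 TPM. By pathway the medians were 18.3 TPM for Wnt, 7.39 for Notch, 8.69 for Hedgehog and 40.7 for BMP. Across these 22 genes the log2(TPM + 1) values of the libraries correlated with r = 0.79 and rho = 0.78, and the median difference between pups was 2.58-fold. For protein-coding genes of both libraries these were 0.70, 0.68 and 1.82-fold. The correlations describe genes, which share library and amplification and are not replicates.

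**Figure D3:**
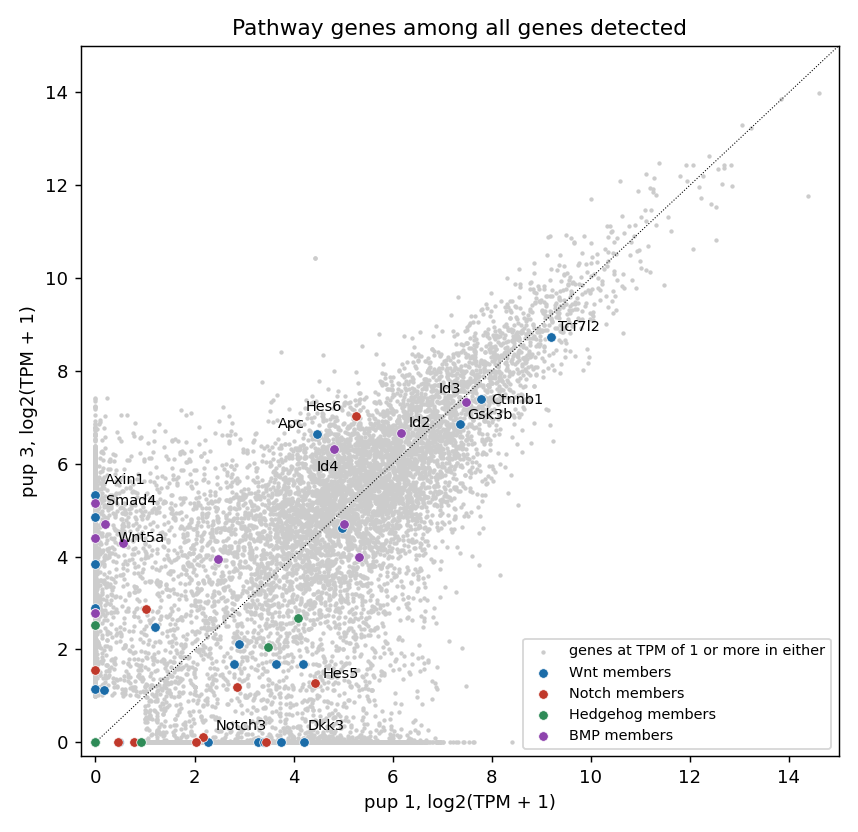
Points give log2(TPM + 1) in pup 1 against pup 3 for genes at a TPM of 1 or more in either library (grey) and for the 58 pathway genes by pathway (colour); the dotted line marks equal levels. Tcf7l2, Ctnnb1, Gsk3b and Id3 lie near the line at high levels, while Axin1, Smad4 and Wnt5a lie on the left edge and Dkk3 and Notch3 on the lower edge.

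The genes seen in 1 library were not confined to those near the detection level. The 9 genes of pup 1 only ran from 3.07 TPM (Dll3) to 17.55 TPM (Dkk3) there, with a median of 9.51 TPM, and the 14 genes of pup 3 only from 1.20 TPM (Fzd5) to 39.25 TPM (Axin1), with a median of 9.85 TPM. At 20 to 50 TPM in pup 3, 5 of 7 pathway genes (71.4%: Wnt5a, Axin1, Bmp4, Bmpr1a and Smad4) were under 1 TPM in pup 1, where 21.4% of 2504 protein-coding genes were. In the other direction, 0 of 7 genes at 20 to 50 TPM in pup 1 were under 1 TPM in pup 3, where 26.9% of 2638 protein-coding genes were. Lower levels were binned at 1 to 5, 5 to 10 and 10 to 20 TPM. By pup 1 level, 3 of 6, 4 of 7 and 2 of 6 pathway genes were under 1 TPM in pup 3. Protein-coding genes gave 46.8%, 41.8% and 37.3%. By pup 3 level, 4 of 12, 3 of 5 and 2 of 4 pathway genes were under 1 TPM in pup 1. Protein-coding genes gave 36.9%, 33.5% and 27.8%. Below 20 TPM the pathway genes thus lay on both sides of the background. None of the 5 genes at 50 TPM or more in pup 1, and none of the 8 in pup 3, was under 1 TPM in the other library. Protein-coding genes at 50 to 100 TPM in pup 1 were under 1 TPM in pup 3 in 12.8% of cases, and those at 100 or more in 2.18%. In the other direction these shares were 8.25% and 1.68%. Just under the detection level in pup 1 lay Gli3 (0.88), Dll1 (0.71), Wnt1 (0.38) and Numb (0.37). Just above it lay Fzd5 and Fzd2 in pup 3 (1.20 and 1.22), Notch1 and Axin2 in pup 1 (1.03 and 1.29) and Rbpj and Hes5 in pup 3 (1.28 and 1.42).

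Within a library, the order of related genes does not depend on its scaling. Of 43 pairs in 14 families, 22 kept 1 order in both pups with deposited TPM intervals that did not overlap in either, 7 had opposite orders with intervals apart, and 14 had no order by this rule. The 22 included pairs with Fzd8, Hes1 or Hey1, which had 0 counts in both libraries, so an opposite order was not possible for them. Gsk3b stood above Gsk3a by 4.46 and 4.73 on the log2(TPM + 1) scale in pup 1 and pup 3. Fzd3 stood above Fzd1 by 2.17 and 2.92. Tcf7l2 stood above Lef1 by 5.54 and 7.05 and above Tcf7l1 by 5.79 and 8.72, so that it led its family in both pups. Id3 stood above Id2 by 1.30 and 0.67, above Id1 by 2.16 and 3.35 and above Id4 by 2.66 and 1.02. Hes6 stood above Hes5 by 0.82 and 5.75, and Smad1 above Smad5 by 5.02 and 1.91.

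The 7 pairs with opposite orders were Dvl1 and Dvl3, Dvl2 and Dvl3, Notch1 and Notch3, Notch2 and Notch3, Bmpr1a and Bmpr2, Smad1 and Smad4, and Id1 and Id4. Dvl1 stood 3.29 above Dvl3 in pup 1 and 2.90 below it in pup 3 (log2 ratios of 3.29 and -2.90). For Notch1 over Notch3 the log2 ratios were -2.42 and 2.88. Bmpr1a over Bmpr2 gave -2.27 and 0.76, and Smad1 over Smad4 gave 5.02 and -0.45. The pair of Notch2 and Notch3 rests in pup 3 on 21 counts of Notch2.

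**Figure D4:**
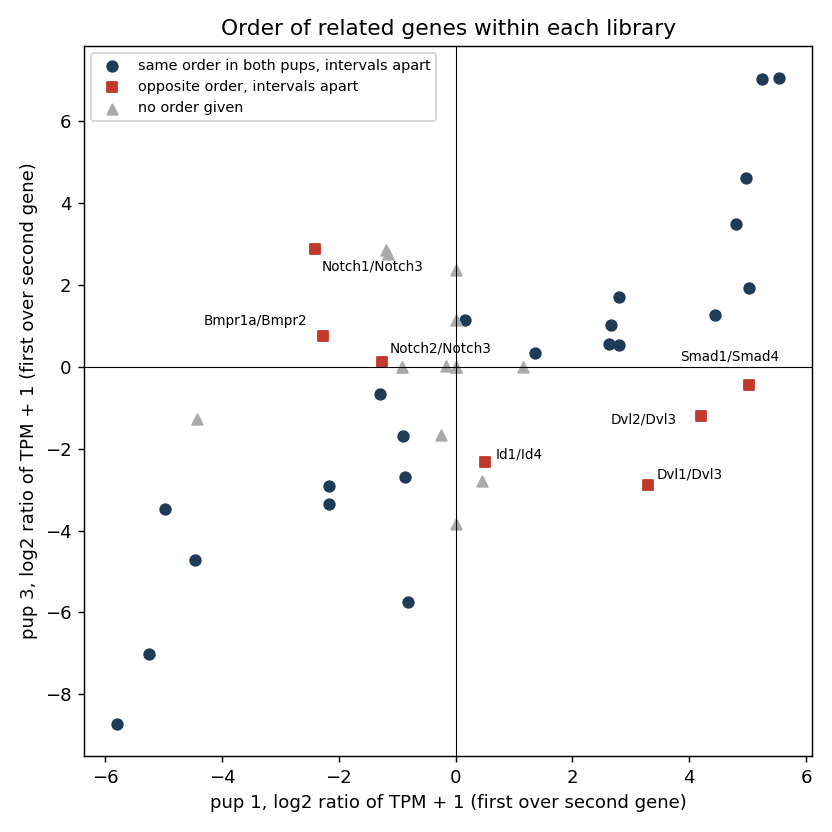
Each point is a pair of related genes, with the log2 ratio of TPM + 1 (first gene over second) in pup 1 on the horizontal axis and in pup 3 on the vertical axis. The 22 pairs with the same order (circles) lie in the lower left and upper right, and the 7 pairs with opposite order (squares, named) in the other corners, with Dvl1/Dvl3 at 3.29 and -2.90.

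Transcript tables gave the share of each gene's abundance on each annotated transcript. Transcripts were compared for genes annotated with 2 or more and counted at least 50 times in each pup's table. Of the 58 genes, 16 qualified, and 14 of them had the same leading transcript in both pups, where 62.8% of 5311 genes that met the same limits did. Ctnnb1 carried 77.34% and 75.53% of its abundance on transcript ENSMUST00000178812.3 (76.4 ± 1.28, n = 2), Gsk3b carried 100% and 85.76% on ENSMUST00000023507.8, and Hes6 carried 96.9% and 86.02% on ENSMUST00000086851.1. Tcf7l2, a gene with 22 annotated transcripts, carried 58.66% and 41.86% on ENSMUST00000111656.3. Its retained-intron transcript ENSMUST00000111649.3 held 0.04% in pup 1 and 23.46% in pup 3, and the short coding transcript ENSMUST00000148666.1 held 13.52% and 0%.

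Apc and Lef1 had different leading transcripts in the pups. The Apc transcript ENSMUST00000115781.5, of 12346 bases, held 80.35% in pup 1 and 18.58% in pup 3. In pup 3, ENSMUST00000079362.7 held 38.34% (7580 counts, against 0 in pup 1) and ENSMUST00000163295.1, a transcript of 608 bases annotated for nonsense-mediated decay, held 34.33% on 394 counts. The Apc level of 98.99 TPM in pup 3 therefore includes a large share from a short transcript with few counts, and the count ratio of 3.12 was below the TPM ratio. Lef1 was chosen for its isoforms after its values were seen. It carried 64.18% on ENSMUST00000098611.3 in pup 1 and 10.64% in pup 3, while ENSMUST00000106341.4 went from 35.52% to 89.36%. It had 160 counts in pup 3.

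The other genes of the pathways were read from lists of 159 genes that do not include the 58. Of these, 50 were detected in both libraries, 67 in neither, 22 in pup 1 alone and 20 in pup 3 alone. Protein-coding genes gave shares of 31.8%, 49.8%, 11.0% and 7.33%. Listed as over 4-fold higher were 29 of the 159 in pup 1 and 24 in pup 3. All 43346 mouse genes gave 7.78% and 6.02%, and the 12144 detected in either library gave 25.9% and 20.5%. Of the 159, 92 were detected in either library. The 29 and 24 were counted over all 159, including some under 1 TPM in both libraries, such as Wnt2b. They are therefore not like for like with the shares of detected genes. The 60 other Wnt genes had 16 in both and 28 in neither, the 38 other Notch genes 17 and 10, the 21 other Hedgehog genes 7 and 7, and the 40 other BMP genes 10 and 22. Wnt genes seen in 1 pup were in pup 1 for 11 and in pup 3 for 5, and other BMP genes for 3 and 5. The 11 BMP genes described above had none in neither library. Among 7 other Notch ligands and receptors, 3 were detected in both libraries and 3 in neither. Dner stood at 191.4 and 54.53 TPM, Cntn1 at 133.41 and 114.17 TPM, and Dlk2 at 0.2 and 66.01 TPM. Wnt ligands were sparse among the 159 genes, as among the 58. Of 20 other Wnt ligands and agonists, 13 had 0 counts in both libraries, and Wnt5b, the highest other Wnt, stood at 20.24 TPM in pup 1 and at 0 in pup 3. Wls, the carrier that every secreted Wnt needs to leave the cell, stood at 99.45 and 0 TPM, and Porcn, the enzyme that attaches lipid to Wnts, at 111.03 and 40.65 TPM.

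The other lists differed in their share detected in both libraries. Of 15 other Wnt transducers, 12 were detected in both libraries, among them the casein kinases Csnk1a1 (116.79 and 251.57 TPM), which primes β-catenin, Csnk1d (150.67 and 32.16 TPM, listed as over 4-fold higher in pup 1), and Apc2, the neural paralogue of Apc (63.66 and 71.67 TPM). Btrc, which targets phosphorylated β-catenin for destruction, stood at 48.59 and 0.89 TPM. Of 17 Notch-processing genes, 11 were detected in both, among them Ncstn (144.82 and 141.37 TPM) and Psenen (102.75 and 139.71 TPM), which encode subunits of the γ-secretase that cuts Notch. In the same list, Poglut1, which adds glucose to Notch, stood at 81.05 and 1.78 TPM, and Adam17, a protease named after its values were seen, at 23.67 and 0 TPM. Of 14 other Notch nuclear and target genes, 3 were detected in both, as were 7 of 21 other Hedgehog genes and 7 of 21 other BMP receptors and transducers. Among other Hedgehog genes, the cilium motor gene Kif3a (417.53 and 304.75 TPM) and the kinase subunit gene Prkacb (263.67 and 162.2 TPM) were highest, and Ift88, a cilium transport gene, stood at 55.03 and 0 TPM. Fkbp1a, which binds type I receptors, was the highest other BMP gene at 305.67 and 661.83 TPM, and the receptor gene Acvrl1, known from endothelium, stood at 0.02 and 43.25 TPM. Acvr2a, a type II receptor gene named after its values were seen, went the other way at 13.33 and 4.81 TPM.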

How the data were processed

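The pathway genes and gene lists were chosen with earlier results of these data known. The authors deposited a gene and a transcript table per library on mm10 with GENCODE M4, per the file headers. Aligner, quantifier and strand setting were not given in the sources used here. Expected counts, as deposited by the authors, were rounded for counting intervals. The deposited TPM values were used as levels, the deposited FPKM in an alternative, the deposited bounds of the TPM interval (read as a signal) for gene pairs, and the deposited isoform percent for transcripts. These bounds do not always contain the deposited TPM (Gsk3b in pup 1 has 162.66 TPM above an upper bound of 159.5). Spike-in and tRNA identifiers (26345 of 69691, with 2.05% and 2.21% of counts) were left out.

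Genes named were all 58 and the leading 4 or fewer, by mean TPM, of each list of other pathway genes (given in part). Any of their genes beyond 4-fold with a mean of at least 20 TPM were added (given in part). The rule for marker lists was up to 3 by mean TPM and those at 0, and for isoforms up to 8 genes. Other markers, such as Slc1a3, Aqp4, Sox2, Kcnj8, Ly6c1, Col1a1 and Slc6a13, were named outside this rule with their values known. No test across pups was run: a two-sided exact test of 2 pups cannot go below 0.5. Coordinates are from GENCODE M21 on GRCm38, and promoters are from RefSeq on GRCm38.p6. On simulated counts for 43346 genes, which held counting error only, the 4-fold rule listed 100 of 100 genes changed 8-fold, 0 of 100 changed 2-fold and 0 of 43146 unchanged. Python 3.11.15, numpy 2.4.6, pandas 2.3.3, scipy 1.17.1 and matplotlib 3.10.9 were used, with R 4.3.3, edgeR 4.0.16 and DESeq2 1.42.0 for scaling factors only.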

Additional observations from a re-analysis of the deposited data

How the results depend on the processing

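A detection level of 10 TPM in place of 1 left 11 genes in both libraries, 32 in neither, 7 in pup 1 alone and 8 in pup 3 alone. With either pup left out, 31 to 36 of the 58 genes were detected in the remaining library, where 22 were detected in both. The median level of the genes detected in both was 11.9 as FPKM, where TPM gave 18.9, and 14.6 to 20.99 TPM with either pup left out. The larger number of genes in pup 3 alone (14, against 9 in pup 1 alone) depended on the detection level. At 0.1 TPM, 13 genes were in pup 1 alone and 11 in pup 3 alone, and at 10 counts 11 and 11. Detection counts at 0.1 TPM, at 10 counts, as FPKM or as posterior mean TPM stayed within 1.5 times. Counts of genes over 4-fold apart did so under TMM or DESeq2 scaling (15 and 15), which lowered every log2 ratio of pup 3 over pup 1 by 0.19 or 0.20 (shifts of -0.19 and -0.20) and turned the direction of Id3 alone, and with posterior mean counts, a 2-fold limit (20 and 20) or genes of a mean TPM of 1 or more (11 and 12). The counts of ordered pairs (22 to 23) and of shared leading transcripts (14, or 11 of 12 at 200 counts) did so too. No paired analysis was possible because both libraries belong to 1 group. The values of genes of few counts, such as Wnt1, Numb and Dll3, are uncertain, and 2 pups limit every value. Whether sequencing depth or the 13 pg of input RNA set these low counts was not tested.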
